A study of Rattus norvegicus with 8 samples.

Results

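Timp1, Timp2, Timp3, Mmp2, Mmp14 and Spp1 are 6 genes of extracellular matrix turnover, measured here in rat soleus, a hindlimb muscle of mainly slow fibres that holds posture. They were taken by name: every probe set whose only gene symbol in the platform annotation was one of the 6 was kept, with no use of its signal. This gave 8 of the 8740 probe sets, and 6 of the 4736 genes named by a single symbol. Timp1 had 2 probe sets, the brighter rc_AI169327_at and the dimmer rc_AI169327_g_at, which were built from the same sequence tag and so are not independent. Mmp2 also had 2, the brighter U65656_at and the dimmer X71466_at, from different sequences. Timp2 (S72594_s_at), Timp3 (U27201_at), Mmp14 (X83537_at) and Spp1 (M14656_at) had 1 each. The ending of the Timp2 name, _s_at, marks probes that can match more than 1 transcript. All 8 passed the filter on low signal that left 5244 probe sets in the test.

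The study compared female rats in 3 groups. Walked rats spent 12 h without standing on their hindlimbs and then walked on a treadmill for 2 h in all, as 30 min bouts alternating with 30 min in the cage over 4 h. Unloaded rats had the 12 h without hindlimb standing and no walking, and control rats had 12 h of ordinary cage activity. Each Affymetrix array received RNA pooled from the soleus of 8 to 10 rats, with 2 walked, 3 unloaded and 3 control pools. No transgene, drug or strain is named in the labels, and the age of the rats is not given in the sources used here. Differences are therefore differences between pools, and the spread between single rats was not measured. The deposited signal is a linear MAS5 intensity with no unit, and it can be compared between arrays for 1 probe set but not between probe sets.

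The arrays had median signals of 37.1 to 42.4. Correlations of log2 signal were 0.949 to 0.963 within groups and 0.913 to 0.945 between groups, and control pool 3 stood apart from the other 2 control pools on the first principal component (-30.0 against -14.2 and -16.3). Markers of slow muscle were bright on all arrays, with a mean Myh7 signal of 7418 in walked, 6311 in unloaded and 5323 in control soleus. In whole muscle, fewer cells of a type and less RNA per cell cannot be told apart.

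Matrix metalloproteinases are zinc enzymes that cut collagens and other proteins outside the cell. Mmp14 sits in the cell membrane and activates the secreted gelatinase Mmp2, and Timp2 takes part in that step as well as inhibiting it, by bridging both enzymes. Timp1 and Timp3 are further inhibitors: Timp1 is secreted and is induced by growth factors and cytokines, and Timp3 is held in the matrix. Spp1 encodes osteopontin, a secreted phosphoprotein that binds integrins and CD44 and is made by bone cells, activated macrophages and injured muscle. Unlike the other 5, osteopontin is neither a protease nor an inhibitor, and it is itself a substrate of metalloproteinases.

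Osteopontin was the member that fell with unloading. Timp2 was the member that fell in walked soleus relative to control soleus, but 9 of 17 alternative settings of the analysis lost that call. The proteases Mmp2 and Mmp14 and the inhibitors Timp1 and Timp3 passed the test in none of the 3 comparisons. Called, rose and fell are used here for a Benjamini-Hochberg adjusted p under 0.05 over all 5244 probe sets, from limma's linear model. In unloaded against control soleus 0 of the 8 probe sets rose and 1 fell, where 3.99% of all tested probe sets rose and 3.32% fell (7.30% in either direction). At an unadjusted p under 0.05 there were 2 of the 8 in this comparison, beside 21.5% of all. In walked against unloaded soleus limma called 0 of the 8, with 2 at an unadjusted p under 0.05 beside 17.4% of all at that threshold, where 2.73% of all rose and 1.47% fell (4.20% in either direction). In walked against control soleus 0 rose and 1 fell, where 4.46% of all rose and 4.61% fell (9.08% in either direction), and 1 of the 8 had an unadjusted p under 0.05 beside 24.7% of all.

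**Figure D1:**
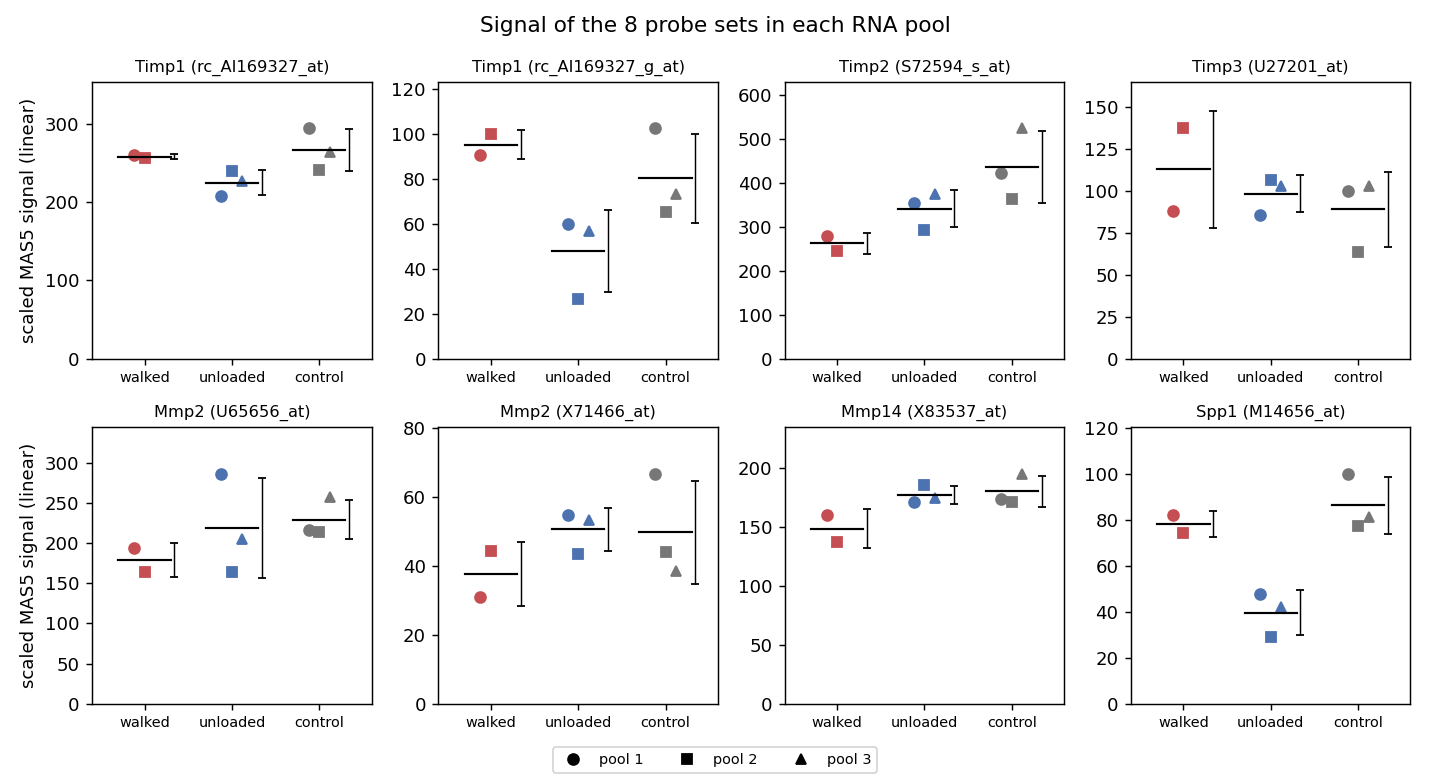
Scaled MAS5 signal (linear, no unit) of the 8 probe sets in each of the 8 RNA pools, with walked, unloaded and control groups from left to right. Symbols mark the pool number, which the labels do not describe as a pairing between groups. Horizontal lines are the group means and side bars the SD (n = 2 walked, 3 unloaded, 3 control). Spp1 lay between 28.8 and 47.9 in unloaded pools and at 74.1 or above in every other pool.

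Spp1 had signals of 47.9, 28.8 and 42.0 in the 3 unloaded pools, against 100.1, 77.3 and 81.2 in the 3 control pools. All unloaded pools lay below all control pools. The group means were 39.6 ± 9.76 in unloaded and 86.2 ± 12.2 in control soleus (SD, n = 3 each). The log2 fold change was -1.15 ± 0.23 (SE; 95% interval -1.66 to -0.63; limma, adjusted p = 0.0131), which is 2.21-fold lower in unloaded soleus. Among the 5244 probe sets tested, its unadjusted p ranked 194. The call was lost without control pool 1, the brightest of the controls (-1.03, limma adjusted p = 0.0546), and when dim probe sets were not filtered out (limma adjusted p = 0.0573). Without control pool 3 the log2 fold change was -1.19, and without unloaded pool 2, the dimmest pool, it was -0.93. Both of these were still called.

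In the 2 walked pools Spp1 had signals of 82.2 and 74.1, with a mean of 78.1 ± 5.68 (SD, n = 2). Both walked pools lay above all 3 unloaded pools. The log2 fold change of walked against unloaded soleus was 1.01 ± 0.26 (SE; 95% interval 0.43 to 1.59), but its limma adjusted p was 0.0581, so it was not called. Over all alternatives that adjusted p ran from 0.0507 to 0.267. Walked and control pools overlapped, with a log2 fold change of -0.13 (95% interval -0.71 to 0.44), which leaves room for a difference of either sign. The unloaded pools served in both of the first 2 comparisons, so the lower signal after unloading and the higher one after walking are not independent observations.

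Of 3153 other genes compared, Serpinh1, Enpep and Pex19 followed the signal of Spp1 most closely over the 8 arrays. Serpinh1, a collagen chaperone of the endoplasmic reticulum, had a Pearson correlation of 0.991 with Spp1. Enpep, a membrane aminopeptidase, had 0.987, and Pex19, a carrier of peroxisomal membrane proteins, had 0.956. These points share arrays and group structure, so the values describe likeness over 8 arrays in 3 groups only. Serpinh1 had signals of 236.9 and 237.1 in walked pools, 86.2, 46.1 and 76.9 in unloaded pools and 306.0, 227.4 and 257.8 in control pools. As with Spp1, unloaded pool 2 was the lowest of all arrays and control pool 1 the highest. Enpep was dim, with means of 34.5 in walked, 9.80 in unloaded and 42.5 in control soleus. Pex19 was also dim, with 38.7 in walked, 18.3 in unloaded and 44.9 in control soleus. Both unloaded means lay under the filter at 25.8, and both genes passed it through their walked and control pools.

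**Figure D2:**
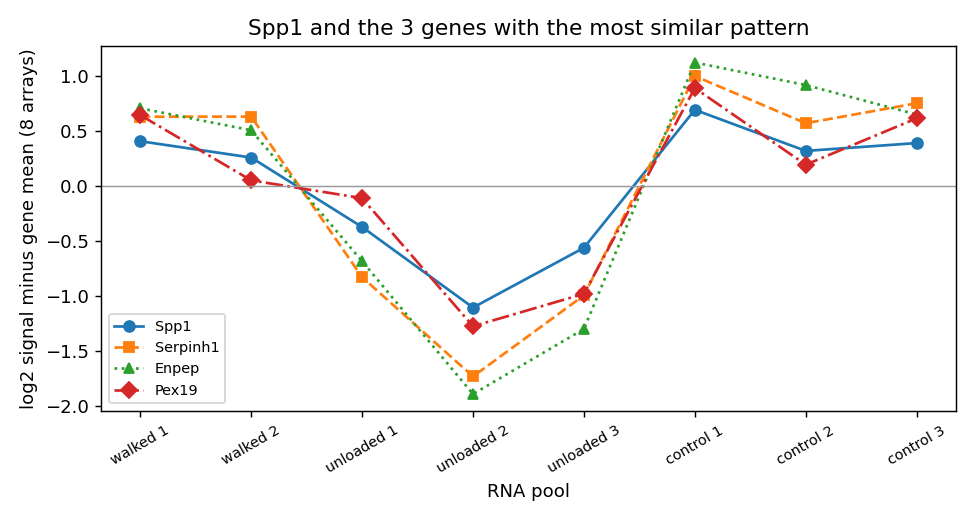
Log2 signal of Spp1, Serpinh1, Enpep and Pex19 in each RNA pool, minus each gene's own mean over the 8 arrays, with the pools in the order walked, unloaded, control. All 4 lines dip in the unloaded pools and reach their lowest point in unloaded pool 2.

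Osteopontin can come from macrophages and bone cells as well as from muscle, and marker genes of other cell types were read beside it. Of 9 leukocyte markers 7 were on the array and 5 were bright enough to test. The summed signal of the 7 ranged from 747 to 822 in walked pools, from 801 to 967 in unloaded pools and from 827 to 942 in control pools, so unloaded and control pools overlapped. Cd48, a leukocyte surface protein, rose in unloaded against control soleus (log2 fold change 1.40 ± 0.25, SE; limma, adjusted p = 0.00634) and the other 4 were not called, with values of -0.83 for Ptprc, -0.34 for Cd74, -0.17 for Cd14 and 0.10 for Lyz2. Ptprc was dim, with means of 23.0 in walked and 24.1 in unloaded soleus, under the filter at 25.8, and 45.6 in control soleus. The median of the 5 tested leukocyte markers in unloaded against control soleus was -0.17, beside -0.08 over all genes. Over all tested probe sets, 3.99% rose and 3.32% fell in this comparison. In walked against control soleus Cd74 fell (-0.65; limma, adjusted p = 0.0334). Over all tested probe sets, 4.46% rose and 4.61% fell there. The myeloid integrin Itgam had means of 10.9 in walked, 9.70 in unloaded and 11.2 in control soleus, under the filter at 25.8. Cd68 and Cd163 are not analysed here.

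Of 5 bone and cartilage markers 1 was bright enough to test, the alkaline phosphatase gene Alpl, with means of 763 in walked, 925 in unloaded and 896 in control soleus and a log2 fold change of 0.05 in unloaded against control soleus. The other 4, Bglap, Ibsp, Acan and Col2a1, had group means between 3.20 and 23.1. Smooth muscle markers moved in the same direction as Spp1 in part. Of 5 tested, Tagln fell in unloaded against control soleus (-0.96; limma, adjusted p = 0.0223), with means of 243 in walked, 150 in unloaded and 291 in control soleus. Acta2 had means of 1224 in walked, 942 in unloaded and 1485 in control soleus and was not called (-0.64; limma, adjusted p = 0.103), and its other probe sets had -0.43 and -2.42. The remaining markers were not called, with 0.34 for Des, -0.13 for Myh11 (-0.39 on its other probe set) and -0.38 for Cnn1. Over all tested probe sets, 3.99% rose and 3.32% fell in this comparison. In walked against unloaded soleus Des had 0.22, Myh11 -0.36 (0.34 on its other probe set) and Cnn1 1.05. Cnn1 was dim, with means of 46.0 in walked and 29.2 in control soleus. Its mean in unloaded soleus was 22.2, under the filter at 25.8. The summed signal of the 5 smooth muscle markers ranged from 3712 to 4923 in unloaded pools and from 4008 to 4783 in control pools, so it overlapped. Des weighed most in that sum, with means of 3555 in walked, 3020 in unloaded and 2365 in control soleus. The overlap therefore says little of the other markers. The part of any of these cells in the Spp1 signal was not tested.

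The upstream bases of Spp1 are shown because it is the member that fell with unloading. Those of Timp1 are shown because all unloaded pools lay below all control pools on both of its probe sets. These come from the same sequence tag and neither was called, and 16.1% of all tested probe sets were lower in this sense. Both stretches are the 250 bases before the start used in the RefSeq promoter table, rat build GRCr8, minus strand, 5′ to 3′, at chr14:5619805-5620054 for Spp1 and chrX:3771123-3771372 for Timp1. Capitals mark matches on either strand to 5 motifs: AP-1 (TGANTCA), an AP-1 variant (TGAGTAA), an Ets core (AGGAAG), a Runx core (TGCGGT) and a TATA motif (TATAAA). The annotated gene span reaches 641 bases further upstream than the Spp1 window and 1206 bases further than the Timp1 window, so both windows lie inside the span and the start used is not its outermost one. The motifs were chosen with these sequences in view.
Spp1: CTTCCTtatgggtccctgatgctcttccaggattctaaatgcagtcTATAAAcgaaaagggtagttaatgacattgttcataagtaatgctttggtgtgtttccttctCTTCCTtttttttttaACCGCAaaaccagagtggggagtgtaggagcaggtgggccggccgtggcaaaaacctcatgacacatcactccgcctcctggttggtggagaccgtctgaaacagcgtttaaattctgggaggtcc
Timp1: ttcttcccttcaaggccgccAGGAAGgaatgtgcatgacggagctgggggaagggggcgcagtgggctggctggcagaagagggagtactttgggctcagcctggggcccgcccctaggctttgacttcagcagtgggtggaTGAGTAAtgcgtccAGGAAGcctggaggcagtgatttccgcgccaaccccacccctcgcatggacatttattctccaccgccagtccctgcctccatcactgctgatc
In Spp1 the capitals are 2 Ets cores on the opposite strand and 1 TATA motif from 204 to 199 bases before the start. There is also 1 Runx core on the opposite strand, from 126 to 121 bases before the start. In Timp1 they are 2 Ets cores and 1 AP-1 variant, which lies from 108 to 102 bases before the start, with the second Ets core from 94 to 89. No motif overlapped another. In mouse, an AP-1 variant next to an Ets site is a known element of the Timp1 promoter. Among 33469 rat promoters the AP-1 variant was found in 2.38%, the Runx core in 5.02%, the TATA motif in 12.9%, the Ets core in 29.5% and the AP-1 motif itself in 6.34%. The AP-1 motif itself had no match in either window. These matches are letters in a window and show no binding. Timp2 and Timp3 were also in the promoter table, and their 250 bases held 0 matches to the 5 motifs. Because the motifs were chosen with the Spp1 and Timp1 windows in view, this gives no contrast between the members.

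Timp1 was lower in all 3 unloaded pools than in any control pool on both probe sets, but neither was called. Of all tested probe sets, 16.1% were lower in this sense. The brighter probe set had signals of 208.4, 240.3 and 226.5 in unloaded pools, against 294.4, 241.5 and 264.1 in control pools. Its highest unloaded pool and its lowest control pool were nearly equal. Its log2 fold change was -0.24 ± 0.14 (SE; limma, adjusted p = 0.356). The dimmer probe set had signals of 60.1, 26.7 and 56.9 in unloaded pools, against 102.6, 65.1 and 73.2 in control pools. Here the log2 fold change was -0.81 ± 0.31 (SE; 95% interval -1.49 to -0.12; limma, adjusted p = 0.153). Unloaded pool 2 stood well below the other 2 unloaded pools, and without it the log2 fold change was -0.43.

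After walking, the brighter Timp1 probe set had signals of 260.3 and 256.2, above all 3 unloaded pools and within the control range. Its log2 fold change against unloaded soleus was 0.20 ± 0.15 (SE; limma, adjusted p = 0.562). The dimmer probe set had signals of 90.7 and 99.97, again above all unloaded pools. Its log2 fold change was 1.08 ± 0.35 (SE; 95% interval 0.32 to 1.84; limma, adjusted p = 0.125), and 0.70 without unloaded pool 2. Both probe sets thus pointed the same way but differed in size, and the cause of that difference was not tested. Against control soleus the walked pools overlapped on both, with log2 fold changes of -0.04 and 0.27. Grin2d (Pearson correlation 0.973), the bradykinin receptor Bdkrb1 (0.967) and the actin regulator Wasl (0.936) had the patterns most like the brighter Timp1 probe set over the 8 arrays.

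Timp2 had signals of 279.1 and 244.8 in the walked pools, against 422.3, 362.3 and 523.8 in the control pools. Both walked pools lay below every control pool. The means were 262 ± 24.3 in walked (SD, n = 2) and 436 ± 81.6 in control soleus (SD, n = 3). The log2 fold change was -0.72 ± 0.19 (SE; 95% interval -1.13 to -0.31; limma, adjusted p = 0.0372), which is 1.65-fold lower in walked soleus. The call was lost when control pool 1, control pool 3, unloaded pool 1 or either walked pool was left out (limma adjusted p 0.0542 to 0.220), and it was kept when control pool 2, unloaded pool 2 or unloaded pool 3 was left out. The size was -0.58 without control pool 3, the highest Timp2 pool. With the pool number as a block it was -0.62 (limma, adjusted p = 0.0542).

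The unloaded pools had Timp2 signals of 354.9, 293.4 and 374.4, between the other groups in their mean (341 ± 42.3, SD, n = 3). They overlapped the control pools, with a log2 fold change of -0.35 ± 0.17 (SE; limma, adjusted p = 0.264) in unloaded against control soleus. Both walked pools lay below all 3 unloaded pools, with a log2 fold change of -0.38 ± 0.19 (SE; limma, adjusted p = 0.337). Neither of these steps passed the test alone. Nbl1, a secreted antagonist of bone morphogenetic proteins (Pearson correlation 0.966), the ribosomal protein gene Rpl19 (0.964) and the mitochondrial transporter Tspo (0.963) were closest to Timp2 over the 8 arrays.

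Timp3 did not separate any pair of groups. Its signals were 88.2 and 137.2 in walked pools, 85.8, 106.2 and 102.8 in unloaded pools and 100.1, 63.3 and 103.1 in control pools. The single highest signal came from walked pool 2 and the lowest from control pool 2. The log2 fold change was 0.17 both for unloaded against control soleus and for walked against unloaded soleus. Walked against control soleus gave 0.34 ± 0.27 (SE; 95% interval -0.25 to 0.93; limma, adjusted p = 0.476). Leaving out walked pool 2 gave 0.02, and leaving out walked pool 1 gave 0.66. Timp3 was most like Ndufab1 (Pearson correlation 0.932), the kininogen gene Kng2 (0.911) and the Z-disc protein gene Actn2 (0.904) over the 8 arrays.

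Mmp14 had the narrowest intervals of the proteases. It had signals of 160.1 and 137.0 in walked pools, 170.9, 185.6 and 174.3 in unloaded pools and 173.7, 171.2 and 195.3 in control pools. Unloaded and control pools overlapped, with a log2 fold change of -0.02 (95% interval -0.34 to 0.29). Both walked pools lay below all other pools. The log2 fold change was -0.26 ± 0.16 (SE; limma, adjusted p = 0.463) against unloaded and -0.28 ± 0.16 (SE; limma, adjusted p = 0.319) against control soleus, so neither was called. Tsc2 (Pearson correlation 0.960), which restrains growth signalling through mTOR, the galectin gene Lgals8 (0.946) and the G protein subunit gene Gnao1 (0.945) had the most similar patterns. Gnao1 was dim, with a mean of 16.8 in walked soleus, under the filter at 25.8.

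Mmp2 gave no call on either probe set. The brighter one had signals of 194.2 and 163.7 in walked pools, 286.8, 164.6 and 205.8 in unloaded pools and 216.5, 214.2 and 257.1 in control pools. The unloaded pools spread more widely than either other group. Walked pools lay below all control pools, with a log2 fold change of -0.36 ± 0.22 (SE; limma, adjusted p = 0.368). The dimmer probe set had signals of 31.0 and 44.3 in walked pools, 54.8, 43.5 and 53.4 in unloaded pools and 66.8, 43.9 and 38.4 in control pools, and all groups overlapped. Its log2 fold change of walked against control soleus was -0.38 ± 0.32 (SE; limma, adjusted p = 0.502). In unloaded against control soleus the values were -0.10 (95% interval -0.54 to 0.34) and 0.06 (95% interval -0.56 to 0.68) for the brighter and the dimmer probe set. The brighter probe set was most like Calcrl (Pearson correlation 0.913), Gata3 (0.866) and Rtf1 (0.864). Gata3 was dim, with a mean of 22.2 in walked soleus, under the filter at 25.8.

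**Figure D3:**
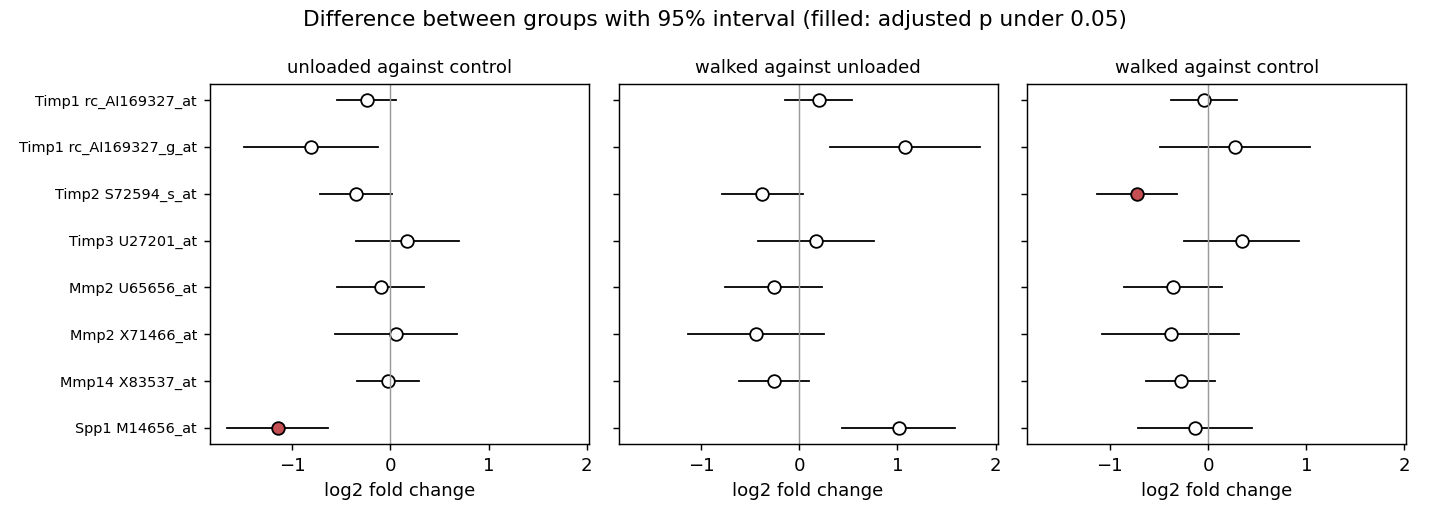
Log2 fold change of each probe set in the 3 comparisons, with the 95% interval from limma. Filled points have an adjusted p under 0.05: Spp1 in unloaded against control (-1.15) and Timp2 in walked against control soleus (-0.72).

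In walked against control soleus 6 of the 8 probe sets had log2 fold changes below 0, beside 59.9% of all tested probe sets. Counting probe sets whose pools did not overlap, 3 were lower in walked than in control soleus (Timp2, Mmp14 and the brighter Mmp2), where 27.6% of all tested probe sets were lower in this sense, and 0 were higher, where 15.5% of all were. In unloaded against control soleus 3 of the 8 were lower (Spp1 and both of Timp1), where 16.1% of all were, and 0 were higher, where 10.2% were. In walked against unloaded soleus 3 were higher (Spp1 and both of Timp1), where 13.5% of all were, and 2 were lower (Timp2 and Mmp14), where 21.8% were. The median log2 fold change of the 8 in unloaded against control soleus was -0.17, beside -0.08 over all tested probe sets. It was -0.04 beside -0.05 for walked against unloaded soleus and -0.21 beside -0.11 for walked against control soleus. Fibroblast markers, 7 genes that include several matrix genes, had summed signals of 6820 to 6906 in walked pools, 7402 to 11480 in unloaded pools and 6327 to 9101 in control pools. Col1a1 and Dcn weighed much in that sum and moved in opposite directions against control soleus. Col1a1 had means of 2381 in walked, 3089 in unloaded and 3470 in control soleus. Dcn had 2240, 2828 and 799 in the same order. The sum therefore says little of the single markers. In walked against control soleus 2 of the 7 fell (Col1a2 and Thy1) and 1 rose (Dcn, with 0.33, 0.27 and 2.45 on its other probe sets). Over all tested probe sets, 4.61% fell and 4.46% rose in this comparison. The part of these cells in the Timp2 result was not tested.

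Related genes were read from 6 lists, counted with the brightest tested probe set of each gene. Over all 3154 genes, an unadjusted p under 0.05 was reached by 19.7% when unloaded was set against control soleus. That share was 16.9% for walked against unloaded soleus, and 23.1% when walked was set against control soleus. Of 6 other metalloproteinases bright enough to test, limma called 0 in all 3 comparisons, with 1 or 2 at an unadjusted p under 0.05 in each. In unloaded against control soleus they ran from -0.94 for Mmp23 to 0.05 for the meprin subunit Mep1a, with a median of -0.44 beside -0.08 over all 3154 genes. All 6 were dim, with means in unloaded soleus from 24.1 for Mmp3, under the filter at 25.8, to 82.7 for Mep1a. The Mmp23 value had an SE of 0.50 (limma, adjusted p = 0.316). Adam17, which sheds membrane proteins and is inhibited by Timp3, had a log2 fold change of -0.48 in unloaded against control and 0.69 ± 0.21 (SE; limma, adjusted p = 0.106) in walked against unloaded soleus. Of 9 genes of the plasminogen system and other protease control, limma also called 0 in all 3 comparisons, with 2 or 3 at an unadjusted p under 0.05 in each. The urokinase receptor gene Plaur, which concentrates plasminogen activation at the cell surface, had means of 132 in walked and 38.8 in unloaded soleus. Its log2 fold change was 1.98 ± 0.51 (SE; limma, adjusted p = 0.0533).

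Of 5 receptors and partners of osteopontin, limma called 0 in all 3 comparisons, and 1 had an unadjusted p under 0.05 in walked against control soleus. Cd44, a cell surface receptor that binds osteopontin and hyaluronan, had means of 78.2 in walked and 32.4 in control soleus, a log2 fold change of 1.37 ± 0.40 (SE; limma, adjusted p = 0.0570). The integrin subunit Itgb1 had -0.22 in unloaded against control and 0.34 in walked against unloaded soleus. Of 8 matricellular proteins, the class to which osteopontin belongs, limma called 0 in all 3 comparisons too, with 2 to 4 at an unadjusted p under 0.05 in each. Postn had the lowest adjusted p of these in unloaded against control soleus, with a log2 fold change of 0.78 ± 0.26 (SE; limma, adjusted p = 0.0996), opposite in sign to Spp1. Sparc had 0.83 on its brightest probe set and 0.47, -0.23 and 0.38 on its others.

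Among 16 substrates of these proteases, 2 rose and 0 fell in unloaded against control soleus, Dcn (log2 fold change 1.83) and Lum (0.82), both small proteoglycans bound to collagen. The other Dcn probe sets had 1.27, 1.46 and 2.70. In walked against control soleus 1 rose, Dcn (1.51, with 0.33, 0.27 and 2.45 on its other probe sets), and 2 fell, the type I collagen gene Col1a2 (-1.03) and Agrn (-0.82), which organises the neuromuscular junction. In walked against unloaded soleus limma called 0, with 4 at an unadjusted p under 0.05. These counts rest on the brightest probe set of each gene. There Col1a1 had -0.34, and -0.87, -0.94 and -0.54 on its other probe sets. Dcn had -0.32, and -0.95, -1.19 and -0.25 on its others. In walked against control soleus Col1a1 was not called (-0.53, with -1.33, -1.22 and -0.58 on its others). The median of this list in walked against control soleus was -0.22, beside -0.11 over all genes. Over all tested probe sets, 3.99% rose and 3.32% fell in unloaded against control soleus, and 4.46% rose and 4.61% fell in walked against control soleus. At an unadjusted p under 0.05 there were 4 of the 16 in unloaded against control and 6 in walked against control soleus.

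The sixth list held cytokines, cytokine receptors and transcription factors of pathways known to induce Timp1 or Spp1 in other settings. Of its 28 genes 15 could be tested. In unloaded against control soleus 3 fell, the early growth response factor Egr1 (-1.14), the AP-1 subunit Junb (-0.76) and the NF-kB subunit Nfkb1 (-0.68), and the interleukin 6 receptor gene Il6r rose (1.26). In walked against unloaded soleus 4 rose and 0 fell: Egr1 (1.95), the AP-1 subunit Fos (1.70), Junb (1.33) and Runx1 (0.87). Runx1 had means of 229 in walked, 126 in unloaded and 142 in control soleus. In walked against control soleus Il6r (0.95), Egr1 (0.81) and Runx1 (0.69) rose and 0 fell. Over all tested probe sets, 3.99% rose and 3.32% fell in unloaded against control soleus. The shares were 2.73% and 1.47% for walked against unloaded, and 4.46% and 4.61% for walked against control soleus. An unadjusted p under 0.05 was reached by 7, 6 and 5 of the 15, in the same order. The shares of all genes were 19.7%, 16.9% and 23.1%. The list was chosen with earlier results known, so these counts are no test of it. The probe sets of Egr1 differed: for unloaded against control soleus its others had -0.87, -0.21 and 0.10. For walked against unloaded soleus they had 2.04, 0.57 and 0.15, while 1.17, 0.36 and 0.25 were found when walked was set against control soleus. Whether any of these bears on Spp1 or Timp1 was not tested.

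**Figure D4:**
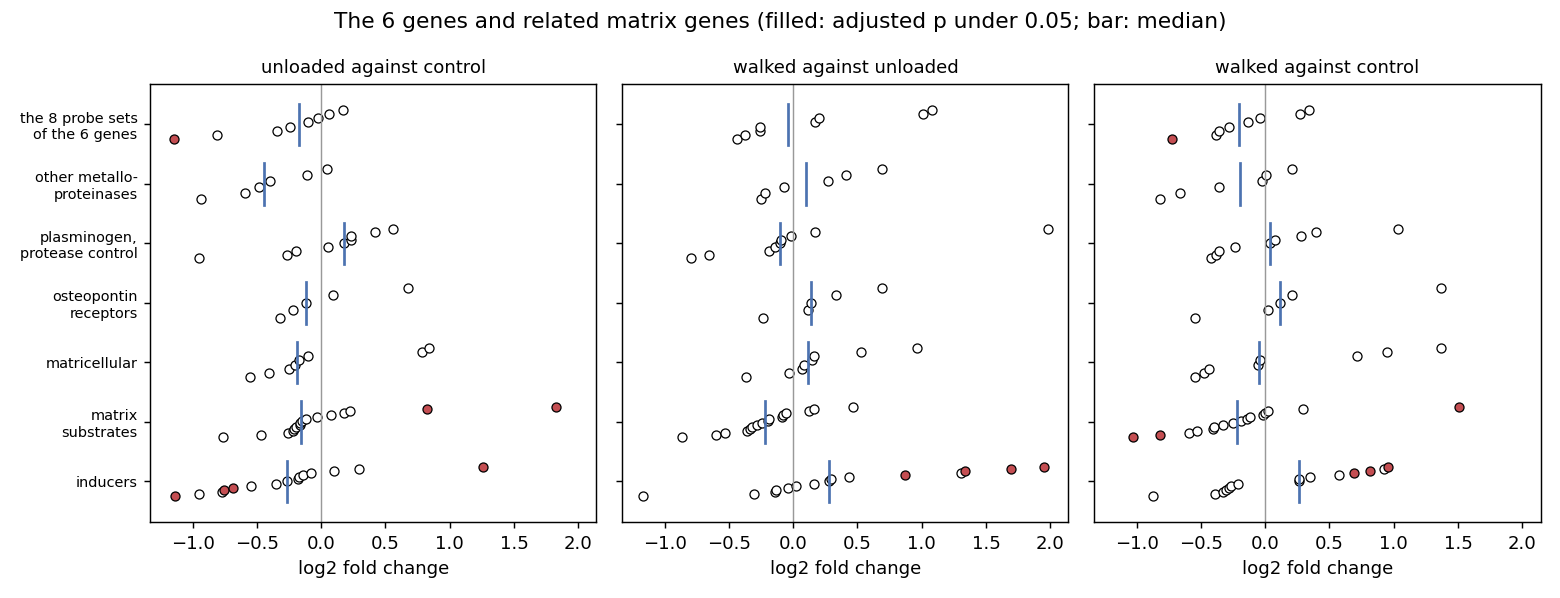
Log2 fold changes of the 8 probe sets (top row) and of the tested genes of the 6 related lists, for the 3 comparisons. Each point is a probe set or gene, filled where the limma adjusted p was under 0.05, and vertical bars are medians. Filled points among the related lists occur in matrix substrates and inducers, with 0 in the other 4 lists.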

How the data were processed

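For each array and probe set the authors deposited a linear signal intensity, which the submitters' processing notes credit to MAS5. Its version is not given in the sources used here. Background is subtracted in that method, so dim signals are noisy. Each of the 8 arrays was scaled to one 2% trimmed mean (149), which moved the deposited values little, values under the 10th percentile (4.10) were raised to that floor before taking log2, and probe sets under the 40th percentile of mean signal (25.8) were left out.

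A linear model with 3 group levels was fitted to all 8 arrays with limma 3.58.1 in R 4.3.3 (lmFit, contrasts.fit and trended eBayes; two-sided; 5 residual degrees of freedom), with Benjamini-Hochberg adjustment over 5244 probe sets, and the script was tested on simulated data. With 3 against 3 or 2 pools an exact permutation test of 1 gene cannot go below p = 0.1, so the calls rest on spread pooled across genes.

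Gene names came from the platform annotation through Entrez IDs (6985 of 7006 probe sets with 1 symbol matched the GRCr8 gene table; 308 had several symbols and 1426 are unnamed here). The members, the 6 related lists, the 8 marker lists and the motifs were chosen with earlier results of these data known. Genes named beside the members are up to 4 called genes of each related list per comparison by smallest p, and the 3 genes with the highest Pearson correlation to each member's brightest probe set. Adam17, Mmp23, Mep1a, Plaur, Cd44, Itgb1, Postn, Sparc and all marker genes were named after their values were seen. Alternatives were another normalization or none, other floors and filters, no trend, only the groups compared, the pool number as a block, and each array left out in turn.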

Additional observations from a re-analysis of the deposited data

How the results depend on the processing

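Of 408 refits of the 24 log2 fold changes of the members (17 alternatives), 386 kept both direction and side of the threshold, 11 lost a call and 11 changed sign. Of the lost calls, 9 were of Timp2 in walked against control soleus and 2 of Spp1 in unloaded against control soleus. The count of called probe sets among the 8 was 1 in unloaded against control soleus and 0 without a filter (0 to 1 with 1 array left out). It was 0 in walked against unloaded soleus throughout. It was 1 in walked against control soleus and 0 without a filter, without a trend (Timp2 adjusted p = 0.0918 by limma), with only the 2 groups compared (0.0540) and with the pool number as a replicate block (0.0542), and 0 to 1 with 1 array left out. The same-numbered pools had correlations of their deviations from group means of -0.07 to 0.05 in 7 pairs. Pools of different number in different groups had -0.07 to 0.11. Deviations from a mean cancel within groups of so few pools, so these values cannot tell whether the numbers pair the pools, and the labels name no pairing. The sign changes were all in uncalled values near 0. In unloaded against control soleus, Mmp14 (-0.02) was 0.029 after quantile normalization and -0.059 to 0.036 with 1 array left out. There the dimmer Mmp2 probe set (0.06) ran from -0.11 to 0.29, the brighter (-0.10) from -0.31 to 0.089 and Timp3 (0.17) from -0.055 to 0.297. Timp3 in walked against unloaded soleus (0.17) ran from -0.15 to 0.49. The brighter Timp1 probe set in walked against control soleus (-0.04) was 0.016 after quantile normalization and -0.11 to 0.032 with 1 array left out. Over all tested probe sets, 383 were called in unloaded against control soleus (228 without a filter, 243 without a trend, 230 to 404 with 1 array left out), 220 in walked against unloaded (120 to 263) and 476 in walked against control soleus (216 without a filter, 211 without a trend, 251 with the block, 105 to 503 with 1 array left out). Where walked pool 1 or 2 was left out, the other was assumed to vary like the other groups. Spp1 in unloaded soleus (mean 39.6), the dimmer Timp1 probe set in unloaded soleus (47.9) and the dimmer Mmp2 probe set had signals not far above the filter at 25.8.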
